A study of Mus musculus with 6 samples.

Results

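The expressed, numbered Zfp genes of newborn mouse epidermis are described here: every gene in the deposited expression table whose symbol was Zfp followed by digits alone and whose mean over the 6 libraries reached 1 FPKM (fragments scaled for gene length and library size), with Zfp36 and Zfp750 left out. Of 17025 genes in the table, 350 had such a symbol, 92 of them lay under the mean of 1 FPKM, and 256 were members. Members were thus chosen by their mean level, so the levels below are descriptions. RNA-seq was made from cells sorted for integrin α6, a basement membrane receptor of basal keratinocytes, at postnatal day 0, from mice labelled control (K14Cre,Ash2lF/+) and mice labelled cKO (K14Cre,Ash2lF/F), with 3 libraries each. Both genotypes carried Cre under the keratin 14 promoter, which is active in basal keratinocytes, and the control mice had 1 floxed allele themselves; no treatment was given. The sources used here do not say whether each library came from its own animal or from pooled animals, so every p-value rests on the spread between libraries, which may be technical.

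Zfp is the mouse prefix for zinc finger proteins. Most of these proteins carry repeated C2H2 fingers, short folds in which a pair of cysteines and a pair of histidines hold a zinc ion and a helix reads DNA bases. Many also have a KRAB box, which recruits TRIM28 and through it SETDB1, HP1 proteins and histone deacetylases, and so silences chromatin, often at retroelements. The genes multiplied by local duplication and lie in clusters, and other members have separate tasks at ribosomes, at spindles, on RNA or in development.

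The targeted gene went against the labels. Ash2l, a core subunit of histone H3 lysine 4 methyltransferase complexes, measured 12.4, 18.1 and 15.9 FPKM in control 1 to 3 but 30.9, 29.5 and 22.9 FPKM in cKO 1 to 3, as labelled. The difference was 0.81 on the log2(FPKM + 1) scale (SE 0.19; limma adjusted p = 0.024), and the adjusted p became 0.056 on leaving out control 1, 0.066 control 3, 0.083 cKO 1 and 0.081 cKO 2. Groups are therefore named by their labels, and every direction below is that of the libraries labelled cKO against those labelled control. Whether the labels of the groups were exchanged was not tested, and every direction would be reversed if they were. Depth was 31578875 to 36027550 fragments per library. Summed FPKM of 8 basal keratinocyte markers was 4896 to 8538 in the control libraries and 8021 to 10461 in the cKO libraries, and no marker in the table was at 0 in all libraries. Markers of other cells moved with the groups. The 8 spinous markers summed to 4595 to 6449 against 34695 to 68057 FPKM, with 5 higher, and the 10 melanocyte markers to 2875 to 3294 against 175 to 375 FPKM, with 10 of 10 lower. Sums for fibroblast (107 to 399 against 186 to 552 FPKM) and Merkel cell markers (8.95 to 20.1 against 9.16 to 10.5 FPKM) overlapped, and those for Schwann cell markers did not (176 to 253 against 77.5 to 107 FPKM). Of 5 Schwann cell markers tested 0 were higher and 1 was lower. The lower one was Sox10, which is also among the 10 melanocyte markers. Immune and endothelial sums stayed at or under 6.28 FPKM. The part of these cell types in the differences of the zinc finger genes was not tested, and fewer cells of a type cannot be told apart from less RNA per cell.

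Most members were expressed at low levels. Their median mean level was 4.66 FPKM, with quartiles of 2.18 and 9.29 FPKM and a range of 1.01 to 80.4 FPKM, beside a median of 10.9 FPKM over the 11603 genes that reached the same limit. There were 61 members under 2 FPKM, 56 at 10 FPKM or more and 9 at 30 FPKM or more. A member had a median of 693 fragments per library, and single values ran from 0 to 10841 fragments. Zfp94 (1.01 FPKM), Zfp811 (1.01 FPKM) and Zfp248 (1.03 FPKM) lay just above the limit, and Zfp719 (0.977 FPKM), Zfp873 (0.961 FPKM) and Zfp647 (0.944 FPKM) just below it. Some members passed through 1 group: 15 had a control mean and 4 a cKO mean under 1 FPKM. Of the called genes below, Zfp296, Zfp667 and Zfp708 (control mean under 1 FPKM) and Zfp382 (cKO mean under 1 FPKM) are among these, so the limit itself favoured a difference in them, and their calls are read as descriptions.

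The highest mean belonged to Zfp207, which encodes a kinetochore and spindle protein, at 80.4 FPKM. It stood at 87.2, 70.9 and 75.4 FPKM in the control libraries and at 76.6, 84.3 and 88.2 FPKM in the cKO libraries, so the groups overlapped. Next came Zfp692 at 54.7 FPKM, Zfp740 at 51.9 FPKM, Zfp91, which encodes a ubiquitin ligase, at 44.7 FPKM, and Zfp598, whose product is a ubiquitin ligase for collided ribosomes, at 42.9 FPKM. Of these 5 genes Zfp692 alone passed the test. Zfp91 (47.0, 58.5 and 48.9 against 43.6, 43.5 and 26.7 FPKM) and Zfp598 (44.6, 53.7 and 47.4 against 38.1, 39.9 and 34.0 FPKM) were lower in every cKO library without passing it (adjusted p = 0.16 and 0.094).

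In the comparison of the groups, 15 members (5.86%) had higher values in the cKO libraries and 8 (3.12%) lower ones by limma at an adjusted p under 0.05 over all 11603 genes tested. The background was 5.87% higher and 13.6% lower (19.5% in either direction, beside 8.98% of members), so the share of members higher was near that of all genes and the share lower was under it. The median difference of the members was 0.03 on the log2(FPKM + 1) scale, beside -0.17 for all genes tested. Scaling by the median of ratios moved the median of all genes to 0.01 and that of the members to 0.19, and the calls among members to 21 higher and 3 lower. Thus the split between higher and lower calls among members depends on the scale, and the members' median lay above that of all genes on each. Shares of all genes called under median-of-ratios scaling are not given here, so the 21 and 3 have no background beside them. Among members, 44 (17.2%) had every cKO library above every control library and 36 (14.1%) the reverse, where the background was 12% and 30.9%. In all 23 called members the groups did not overlap. A call with 3 libraries per group makes this likely, so it adds no support to the calls.

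**Figure D1:**
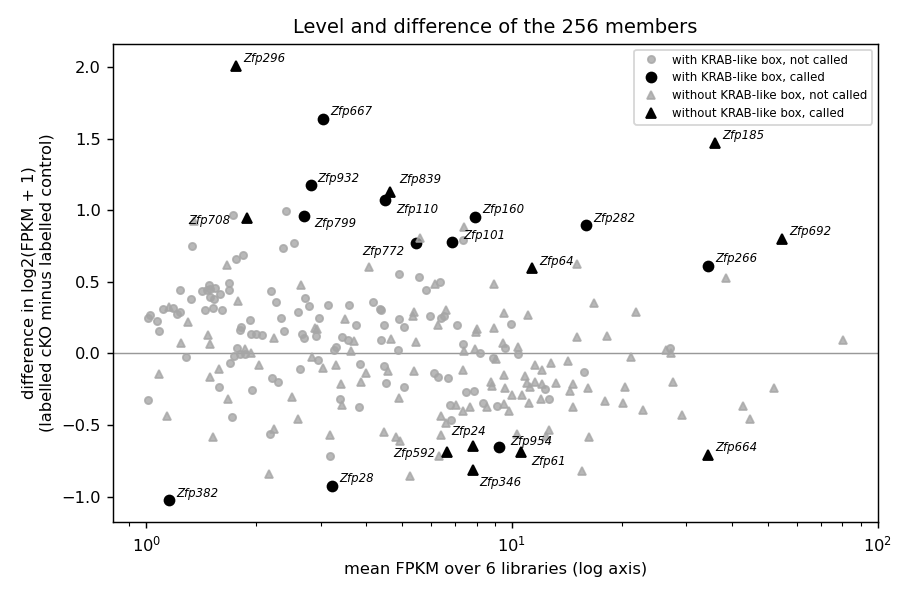
Difference in log2(FPKM + 1), labelled cKO minus labelled control, against the mean FPKM over the 6 libraries (log axis) for the 256 members; black points passed the test and grey points did not, and the shape tells whether a KRAB-like box was found in the predicted protein. The 15 higher calls lie between 0.59 and 2.01 and the 8 lower calls between -0.65 and -1.03, and called genes occur across the range of levels, Zfp382 near the lower end and Zfp692 near the upper.

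Calls at this number of libraries were fragile. Only Zfp296, Zfp667, Zfp185, Zfp839 and Zfp110, all higher, kept the call in each of the 6 fits that left out 1 library and in all 18 alternative fits. The limit of 1 FPKM was still computed from all 6 libraries when 1 was left out. Zfp296 and Zfp667 passed that limit through the cKO libraries, so their stability is a description. Counts of members higher and lower were 9 and 5 without control 1, 5 and 1 without control 2, 10 and 0 without control 3, 6 and 0 without cKO 1, 7 and 1 without cKO 2, and 14 and 6 without cKO 3. Shares of all genes called in these fits are not given here, so whether the changes concern members alone is not shown. None of the 23 changed direction in any fit. For the other 18 genes the libraries whose removal ended the call are named below.

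Promoters of some called genes, chosen with results of these data known, are shown before the values of these genes. The calls of Zfp692, Zfp382 and Zfp28 were lost in fits that left out 1 library, as given below. RefSeq promoter entries (GRCm38.p6, from 250 bases before to 50 after the start) matched 214 members with 260 entries. The 3 shown for risen genes are Zfp667 at chr7:6286330-6286629, Zfp296 at chr7:19577037-19577336 and Zfp692 at chr11:58306819-58307118, and the 2 for fallen genes are Zfp382 at chr7:30121682-30121981 and Zfp28 at chr7:6383068-6383367, all on the plus strand. Each is written 5′ to 3′. Capitals mark GGGCGG, the core bound by SP and KLF factors, or its reverse complement CCGCCC in Zfp667, Zfp296 and Zfp382. In Zfp692 they mark CTACAATTC, a core of the ZNF143 motif, and in Zfp28 CTTCCGG, the reverse complement of the ETS core CCGGAAG. Only 1 motif is marked in each promoter, and that of Zfp28 also holds GGGCGG, in lower case.
Zfp667: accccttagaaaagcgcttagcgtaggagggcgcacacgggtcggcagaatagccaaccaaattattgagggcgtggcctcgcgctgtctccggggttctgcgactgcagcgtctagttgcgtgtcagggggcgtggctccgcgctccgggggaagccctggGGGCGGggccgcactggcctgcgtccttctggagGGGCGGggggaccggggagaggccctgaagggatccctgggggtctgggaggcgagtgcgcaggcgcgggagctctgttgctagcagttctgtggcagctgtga
Zfp296: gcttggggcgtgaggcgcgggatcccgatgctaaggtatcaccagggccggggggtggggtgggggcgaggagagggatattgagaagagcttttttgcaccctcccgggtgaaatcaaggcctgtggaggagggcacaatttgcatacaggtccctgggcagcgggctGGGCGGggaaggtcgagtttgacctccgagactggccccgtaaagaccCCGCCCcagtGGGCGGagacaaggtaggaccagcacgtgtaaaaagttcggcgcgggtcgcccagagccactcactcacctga
Zfp692: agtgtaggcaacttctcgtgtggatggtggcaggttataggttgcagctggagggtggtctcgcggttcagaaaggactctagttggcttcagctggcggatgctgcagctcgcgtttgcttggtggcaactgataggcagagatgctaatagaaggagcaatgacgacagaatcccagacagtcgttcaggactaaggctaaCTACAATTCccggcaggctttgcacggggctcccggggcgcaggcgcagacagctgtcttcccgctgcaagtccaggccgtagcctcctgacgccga
Zfp382: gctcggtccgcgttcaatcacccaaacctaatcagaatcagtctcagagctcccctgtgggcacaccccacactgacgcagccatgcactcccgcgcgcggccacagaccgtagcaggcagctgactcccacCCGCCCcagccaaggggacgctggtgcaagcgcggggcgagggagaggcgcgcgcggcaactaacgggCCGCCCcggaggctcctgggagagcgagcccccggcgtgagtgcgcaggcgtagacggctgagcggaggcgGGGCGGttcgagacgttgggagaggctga
Zfp28: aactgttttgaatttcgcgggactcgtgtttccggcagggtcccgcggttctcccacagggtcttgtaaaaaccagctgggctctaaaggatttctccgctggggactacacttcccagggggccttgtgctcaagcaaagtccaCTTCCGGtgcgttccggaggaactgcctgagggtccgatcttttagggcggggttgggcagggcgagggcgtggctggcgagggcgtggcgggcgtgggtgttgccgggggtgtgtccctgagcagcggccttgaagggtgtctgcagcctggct

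Both strands were searched, and matches of different motifs may overlap. GGGCGG occurred in 50% of the members' entries, in 63.9% of the entries of genes tested and in 35.7% of all 32851 entries. CCGGAAG occurred in 21.5%, 17.7% and 8.9%, CCAAT in 44.6%, 37.4% and 37.4%, and TATAAA in 6.5%, 7.2% and 13.6%, in the same order. CTACAATTC was rare, at 1.9%, 0.7% and 0.4%. The members holding it were Zfp933, Zfp180, Zfp1, Zfp692 and Zfp58, with differences of 0.13, -0.40, -0.21, 0.80 and -0.59, of which Zfp692 passed the test. GC content had a median of 56.3% in the members' entries, between 61.0% for genes tested and 52.7% for all entries, and the ratio of observed to expected CpG was 0.688, 0.760 and 0.384. A letter match is no binding site, and these promoters were not assayed.

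Zfp296, a zinc finger gene known from pluripotent cells, had the largest difference. It stood at 0.290, 0 and 0 FPKM (14, 0 and 0 fragments) in control 1 to 3 and at 3.44, 2.65 and 4.19 FPKM (177, 138 and 231 fragments) in cKO 1 to 3. The gene was thus near absent from the control libraries and present in every cKO library. Means were 0.0966 ± 0.167 and 3.43 ± 0.771 FPKM (SD, n = 3), and the difference was 2.01 (SE 0.24; limma adjusted p = 0.0024).

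Zfp667, a KRAB gene, stood at 0.703, 0.880 and 1.23 FPKM in the control libraries and at 3.99, 4.40 and 7.03 FPKM in the cKO libraries. The groups lay far apart, with cKO 3 highest. It rose 5.48-fold, a difference of 1.64 (SE 0.25; limma adjusted p = 0.0055).

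Zfp185 is named for zinc fingers but carries a LIM domain, binds actin and is known from differentiating epidermis. It is 1 of 6 members with no C2H2 finger found in the predicted protein. It was abundant, at 12.8, 22.2 and 20.7 FPKM against 45.1, 42.7 and 72.4 FPKM, and cKO 3, the library with the largest spinous marker sum, held the highest value. The rise was 2.88-fold, a difference of 1.47 (SE 0.27; limma adjusted p = 0.0097). The spinous marker sums were also higher in the cKO libraries, and their part in the values of Zfp185 was not tested. A highest value in cKO 3 was not particular to Zfp185. Among other rises, Zfp296 and Zfp667 were also highest there, while Zfp282 and Zfp101 were lower in cKO 3 than in the other cKO libraries.

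Zfp839 (2.86, 1.98 and 2.78 against 5.76, 7.02 and 7.42 FPKM) rose by 1.13 (SE 0.21; limma adjusted p = 0.0096). Zfp110, whose product binds the p75 neurotrophin receptor, stood at 2.52, 2.06 and 3.15 against 6.30, 6.65 and 6.38 FPKM and rose by 1.07 (SE 0.20; limma adjusted p = 0.010). In both genes the control and the cKO libraries formed tight, separate groups. Zfp839 overlaps the pseudogene Mpc1-ps and Zfp185 the microRNA gene Mir2137 in GRCm38, and whether the authors' counting used strand is not given in the sources used here.

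Other rises were smaller or less stable. Zfp932, one of a group of KRAB genes whose proteins bind retrotransposons, stood at 0.6, 1.80 and 1.69 against 3.87, 3.24 and 5.69 FPKM, a difference of 1.17 (SE 0.30; limma adjusted p = 0.032) that was lost whichever library was left out (adjusted p up to 0.076). Zfp708, another gene tied to retroelement silencing, was even among the controls, at 0.938, 0.896 and 0.984 FPKM, and stood at 2.00, 2.44 and 4.03 FPKM in the cKO libraries; its difference of 0.94 (adjusted p = 0.037) was lost whichever library was left out (up to 0.095), and it overlaps the paralogue Rslcan18 in GRCm38. Both are low genes, and cKO 3 was highest for both.

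Zfp799 (1.15, 1.32 and 2.13 against 3.38, 3.99 and 4.22 FPKM) and Zfp160 (4.03, 5.06 and 6.23 against 10.1, 10.1 and 12 FPKM), both KRAB genes, differed by 0.96 and 0.95 (limma adjusted p = 0.025 and 0.016). Zfp282, whose product is a KRAB repressor, stood at 8.59, 11.9 and 12 against 22.1, 23.7 and 17.1 FPKM and Zfp101 at 4.42, 4.18 and 5.75 against 9.59, 10.1 and 7.12 FPKM, with differences of 0.90 and 0.78 (adjusted p = 0.019 and 0.037). In the last pair cKO 3 was the lowest of the cKO libraries, the reverse of Zfp932 and Zfp708. The call of Zfp160 was lost without control 2 (0.060), that of Zfp282 without control 2, cKO 1 or cKO 2 (up to 0.073), that of Zfp799 without control 1, control 2, cKO 1 or cKO 2 (up to 0.089), and that of Zfp101 on leaving out any library but cKO 3 (up to 0.13).

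Zfp692 was the most abundant riser, at 31.5, 42.1 and 44.5 against 71.2, 53.1 and 85.6 FPKM (difference 0.80, SE 0.21; limma adjusted p = 0.035), and its call was lost on leaving out any library but cKO 2 (adjusted p up to 0.090). It overlaps Zfp672 in GRCm38. Chosen after their values were seen, Zfp772 (2.88, 4.88 and 3.65 against 7.45, 8.09 and 5.91 FPKM; 0.77, adjusted p = 0.048) and Zfp266 (21.5, 28.9 and 31.3 against 41.5, 40.2 and 43.2 FPKM; 0.61, adjusted p = 0.038) complete the rises with Zfp64, a transcription factor tied to the leukaemia gene MLL. Zfp64 stood at 8.84, 9.96 and 7.71 against 13.9, 14.8 and 12.8 FPKM (0.59, adjusted p = 0.042). The calls of Zfp772 and Zfp64 were lost on leaving out any library but cKO 3 (up to 0.16 and 0.14), and that of Zfp266 whichever was left out (up to 0.10).

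**Figure D2:**
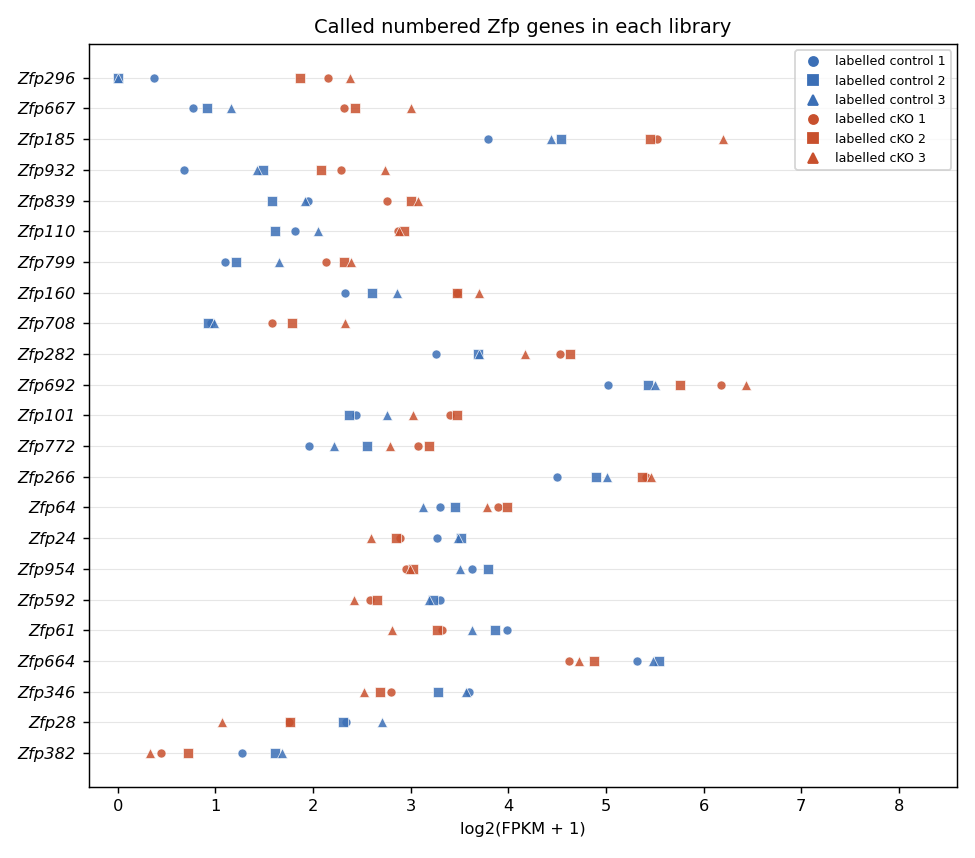
log2(FPKM + 1) of the 23 called members in each of the 6 libraries; blue symbols are the libraries labelled control, red those labelled cKO, and the symbol gives the replicate number. Genes are ordered by their difference, from Zfp296 at the top (2.01) to Zfp382 at the bottom (-1.03). Blue and red do not overlap in any gene, which the selection of called genes makes likely.

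The largest fall was that of Zfp382, whose product is a KRAB repressor. It went from 1.42, 2.05 and 2.22 FPKM in the control libraries to 0.362, 0.641 and 0.255 FPKM in the cKO libraries, where it held 98, 176 and 74 fragments. All cKO values lay under all control values, and the mean was 4.52-fold lower. It fell by 1.03 (SE 0.24; limma adjusted p = 0.023), and the call was lost without control 2, control 3, cKO 1 or cKO 2 (up to 0.081). Zfp28, another KRAB gene, stood at 4.07, 3.94 and 5.5 against 2.37, 2.39 and 1.09 FPKM and fell by 0.92 (SE 0.26; adjusted p = 0.044). Its lowest value was in cKO 3, and the call was lost whichever library was left out (up to 0.13).

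Zfp664 was the most abundant of the genes that fell, at 38.8, 45.6 and 43.8 against 23.6, 28.4 and 25.4 FPKM. It was even within both groups, fell by 0.71 (SE 0.14; limma adjusted p = 0.013), and lost its call without control 2, control 3 or cKO 1 (up to 0.055). Zfp346, which binds double-stranded RNA, fell by 0.81 (SE 0.18; adjusted p = 0.020), from 11.1, 8.72 and 10.8 to 5.95, 5.43 and 4.75 FPKM. Its call was lost without control 1, control 3, cKO 1 or cKO 2 (up to 0.073). Zfp346 overlaps Gm46415 in GRCm38, where 6 called members in all overlap another gene.

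Zfp592, part of a chromatin complex with Zmynd8, stood at 8.82, 8.35 and 8.09 against 4.97, 5.28 and 4.35 FPKM (-0.69, SE 0.17; limma adjusted p = 0.029). Zfp24, which is needed for myelination by oligodendrocytes, stood at 8.67, 10.4 and 10.2 against 6.39, 6.21 and 5.03 FPKM (-0.65, adjusted p = 0.040). Zfp954 (11.4, 12.8 and 10.4 against 6.73, 7.11 and 6.98 FPKM) and Zfp61 (14.8, 13.6 and 11.4 against 8.98, 8.66 and 5.99 FPKM) differed by -0.65 and -0.69 (adjusted p = 0.029 and 0.049). In each of the 4 genes the cKO libraries lay below the controls, with cKO 3 lowest in Zfp592, Zfp24 and Zfp61. Calls were lost on leaving out any library but cKO 3 for Zfp592 and Zfp954 (up to 0.092 and 0.11), any but control 1 for Zfp24 (up to 0.13) and any at all for Zfp61 (up to 0.14). Median-of-ratios scaling also ended the calls of all 4 and of Zfp28 (adjusted p = 0.061 for Zfp592, 0.081 for Zfp24, 0.091 for Zfp954, 0.090 for Zfp61 and 0.059 for Zfp28).

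The proteins of the members fell into classes that the rule did not use. A KRAB-like box, read from the longest open reading frame of the GENCODE M21 transcripts, was found in 124 members and not in 132. It was sought with a fixed sequence pattern and not checked against annotated domains, so the class without it may hold KRAB genes. Members with the box had a median of 12 C2H2 fingers (2 to 23) and a median mean level of 2.86 FPKM, and those without had 8 fingers (0 to 37) and 7.75 FPKM. Of the members with the box, 106 carried the authors' annotation for the KEGG pathway "Herpes simplex virus 1 infection", a list that holds many KRAB genes, beside 22 of those without.

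Members with a KRAB-like box had the higher median difference. With the box, 9 (7.26%) were higher and 3 (2.42%) lower, 86 differences were above 0 and 38 below, and the median was 0.20. Without it, 6 (4.55%) were higher and 5 (3.79%) lower, 52 were above 0 and 80 below, and the median was -0.13, beside -0.17 for all genes tested. Groups did not overlap upwards in 31 (25%) and downwards in 7 (5.65%) of the members with the box, and in 13 (9.85%) and 29 (22%) of those without, where the background was 12% and 30.9%. Both classes thus had a smaller share of falls than all genes, by calls (background 13.6%) as by overlap, and the share of higher calls was 5.87% over all genes. The medians became 0.35 with and 0.03 without the box under median-of-ratios scaling, and 0.47 and 0.05 by limma-voom with TMM scaling, so the sign of the class without the box depended on the scale and the order of the classes did not.

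**Figure D3:**
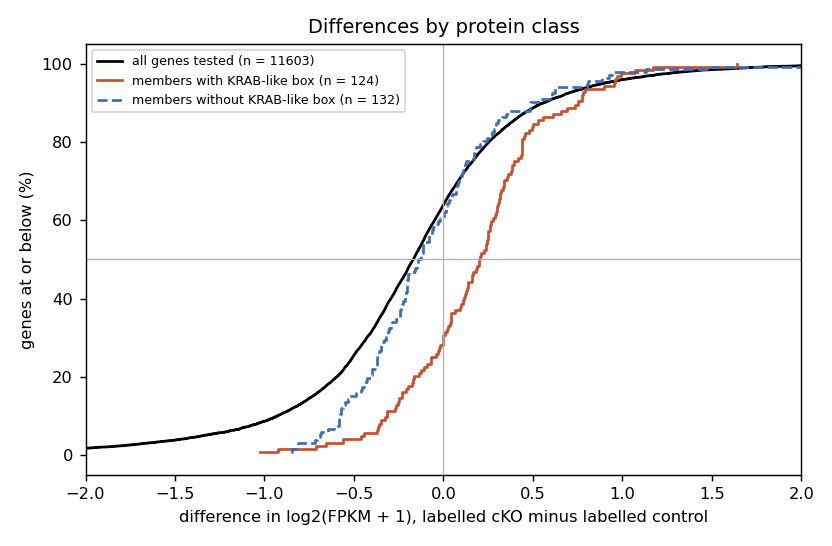
Cumulative share of genes (percent, vertical axis) at or below each difference in log2(FPKM + 1), labelled cKO minus labelled control, for all 11603 genes tested, the 124 members with and the 132 without a KRAB-like box. The curve of members with the box crosses 50% at 0.20, to the right of the others at -0.13 and -0.17.

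The same order was seen in all 4 ranges of level. Between 1 and 2 FPKM the 43 members with the box had a median of 0.29 and the 18 without 0.07, where all 1100 genes at that level had -0.18. Between 2 and 5 FPKM the medians were 0.18 (46 members), -0.11 (28 members) and -0.16 (all 2185 genes). Between 5 and 10 FPKM they were 0.05, -0.12 and -0.17, and at 10 FPKM or more 0.00 for only 7 members with the box, -0.21 for 49 without and -0.17 for all genes. Among members with the box the median was thus lower where the level was higher. Members that passed the limit of 1 FPKM through 1 group (15 with a control mean and 4 with a cKO mean under it) stayed in the classes. The limit itself favoured a difference in them, more often upwards. Class counts and medians, and the gap given below, were not computed without them and are descriptions. By finger number, the 6 members with none found had a median of -0.04 (2 called higher, Zfp185 and Zfp839), the 34 members with 1 to 4 fingers had a median of -0.24, the 70 with 5 to 9 fingers -0.02, the 92 with 10 to 14 fingers 0.13 and the 54 with 15 or more 0.13. Splitting instead by the authors' KEGG annotation gave 0.15 for the 128 members in it and -0.08 for the 128 outside it.

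Each library gave the gap between the classes on its own. The mean log2(FPKM + 1) of members with the box minus that of members without was -1.07, -1.07 and -1.03 in control 1 to 3 and -0.84, -0.83 and -0.73 in cKO 1 to 3. The groups did not overlap. Their means were -1.06 ± 0.02 and -0.80 ± 0.06 (SD, n = 3), a difference of 0.25, which was 0.33 with a pseudocount of 0.1, 0.23 after median-of-ratios scaling and 0.15 between the classes of the KEGG annotation. No p-value is given, since the classes were examined with results of these data known.

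**Figure D4:**
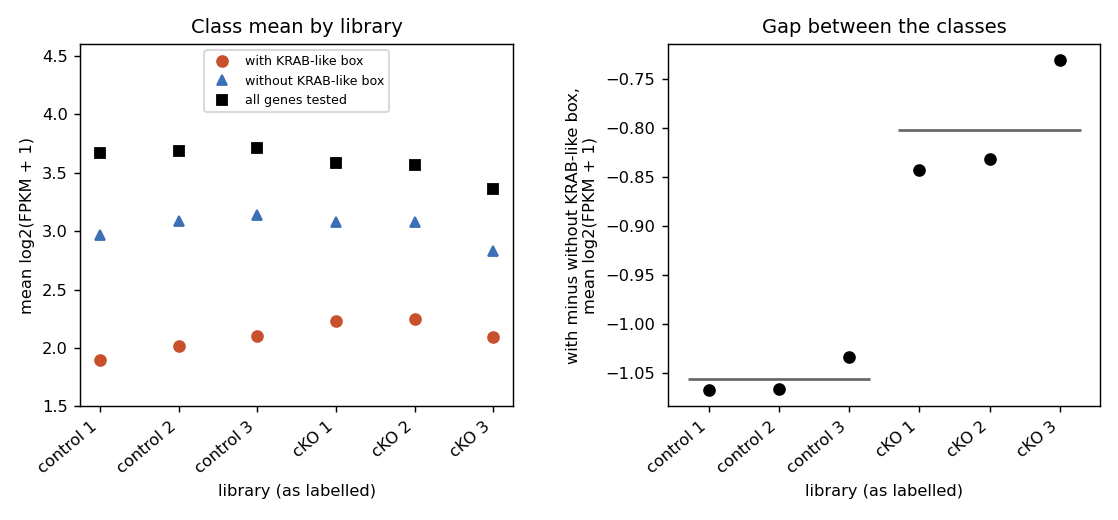
Left, mean log2(FPKM + 1) in each library for members with and without a KRAB-like box and for all genes tested; right, the first minus the second, with lines at the group means of -1.06 and -0.80. The gap is narrower in each cKO library than in each control library, and on the left cKO 3 is the lowest of the cKO libraries for every class.

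Libraries differed within groups. Control 1 held the lowest value of 76 members (29.7%, beside 16.3% of all genes tested) and cKO 3 that of 94 (36.7%, beside 43.9%). The median member stood at 3.98, 4.70 and 4.87 FPKM in control 1 to 3 and at 4.88, 5.18 and 4.44 FPKM in cKO 1 to 3. Without control 1 or cKO 1 the members' median difference was -0.03 and -0.04, against 0.03 with all libraries.

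By role, the genes tied to imprints and retroelements had 2 rises, Zfp708 and Zfp932, and no fall among 9 tested (22.2% and 0%, beside 5.87% and 13.6% of all genes). Zfp445, which guards imprinted loci, was at 19.4, 29.4 and 31.5 against 30.4, 29.7 and 21.7 FPKM (0.04, adjusted p = 0.92), and Zfp809, which silences murine leukaemia virus, at 4.05, 6.94 and 5.83 against 4.25, 4.25 and 5.11 FPKM (-0.23, adjusted p = 0.49). In both the groups overlapped. Zfp57, the other guardian of imprints, was no member, with values of 2.34, 0.782 and 1.57 against 0.156, 0.222 and 0.223 FPKM. The limit of 1 FPKM thus left out Zfp57, whose cKO values all lay under its control values. It let in Zfp708 through the cKO libraries (control mean 0.939 FPKM). The shares of 22.2% and 0% depend on that limit and on a list chosen with earlier results known.

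Among the 7 members that act on ribosomes, RNA or translation, Zfp346 fell (14.3%, beside 13.6% of all genes) and none rose (5.87% of all genes). All 7 differences were below 0 on the deposited scale, where 7417 of 11603 genes were; the median was -0.35, and -0.15 after median-of-ratios scaling, beside -0.17 and 0.01 for all genes. Zfp622, a ribosome maturation factor, stood at 15, 18.3 and 19.6 against 15, 15.2 and 13.9 FPKM (-0.24, adjusted p = 0.31), and Zfp326, an RNA-binding splicing protein, at 12.7, 21.8 and 24.7 against 14, 14.6 and 5.25 FPKM (-0.82, adjusted p = 0.18). The spread within groups was wide for Zfp326. Over the alternative fits Zfp593 and Zfp330 reached 0.002 and 0.003 at their highest, and the other 5 stayed below 0.

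Of 16 chromatin, loop and spindle genes Zfp64 rose and Zfp592 fell (6.25% each, beside 5.87% and 13.6% of all genes). Zfp687, a relative of Zfp592 in the same complex, stood at 8.37, 6.5 and 7.73 against 5.61, 5.46 and 4.81 FPKM (-0.44, adjusted p = 0.13), and Zfp532, the third of that kind, at 10.2, 10.6 and 9.71 against 10.7, 9.98 and 10.9 FPKM (0.05, adjusted p = 0.86). Zfp687 was lower in every cKO library and Zfp532 overlapped. Zfp281, a factor of pluripotent cells, stood at 6.96, 8.18 and 8.97 against 5.91, 5.15 and 2.86 FPKM (-0.72, adjusted p = 0.086), and Zfp143, the factor of the CTACAATTC core, at 15.5, 9.08 and 11.1 against 13.2, 12.8 and 7.72 FPKM (-0.08, adjusted p = 0.86).

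Of 9 developmental regulators tested, Zfp296 rose and Zfp24 fell (11.1% each, beside 5.87% and 13.6% of all genes). Zfp423, known from fat cell precursors and neural development, stood at 0.192, 0.552 and 1.05 against 2.29, 3.12 and 0.913 FPKM (0.92, SE 0.35, limma adjusted p = 0.10). Its control mean was 0.599 FPKM, so it passed the limit of 1 FPKM through the cKO libraries and its values are descriptions. In Zfp423 cKO 3 lay among the controls. The limma adjusted p was 0.034 without cKO 3 and 0.11 to 0.28 with any other library left out. Fibroblast marker sums were also highest in cKO 1 and cKO 2 (552 and 513 FPKM) and lower in cKO 3 (186 FPKM). Their part in the values of Zfp423 was not tested. Zfp703, a transcriptional cofactor, stood at 28.6, 33.9 and 37.5 against 30.2, 27.6 and 17.3 FPKM (-0.43, adjusted p = 0.21).

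The KRAB box works through corepressors, and 35 genes of that machinery and of heterochromatin were tested. Trim28 was abundant, at 99.3, 89.1 and 101 against 90.8, 87.2 and 93.0 FPKM (-0.09, adjusted p = 0.60), and Setdb1 stood at 22.1, 21.8 and 16.6 against 24.6, 23.4 and 24.4 FPKM (0.26, adjusted p = 0.28). In all, 1 gene rose and 1 fell (2.86% each, beside 5.87% and 13.6% of all genes), and the median of -0.15 was near the -0.17 of all genes. Mphosph8, a chromodomain subunit of the HUSH silencing complex, fell by 1.16 (SE 0.21; limma adjusted p = 0.0091), from 18.1, 11.9 and 11.9 to 5.58, 5.98 and 5.15 FPKM. Chd3, a remodeller of the NuRD complex, rose by 0.87 (adjusted p = 0.039), from 28.7, 21.5 and 40.7 to 59.4, 60.6 and 45.2 FPKM, and no gene of the list was higher without control 2, cKO 1 or cKO 2.

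Neighbouring members did not always share a direction. By gene order in GRCm38, 110 members lay in runs of at least 2 with no other protein-coding gene between, and 146 had no member beside them. In the whole set 2 pairs of called members had at most 5 protein-coding genes between them, and in both 1 rose and 1 fell; these pairs were chosen after their values were seen. Zfp667 rose and Zfp28 fell, with Zfp583 (0.182 FPKM) and Zfp78 (0.289 FPKM) between them. Zfp772 rose and Zfp954 fell, with Zfp773 (0.0864 FPKM) and Zfp418 (0.490 FPKM) between them. The predicted proteins of Zfp772 and Zfp954 were identical at 67.8% of 423 aligned positions, gaps included, and their promoters at 58.7% of 339. Unrelated promoters were not aligned for comparison. Identity of the transcripts was not measured, so whether reads of the 2 genes were shared is not known. The treatment of shared reads by the authors' counting is not given in the sources used here.

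Related zinc finger families were counted in the same fit. Zfp genes with a letter after the number had 0 rises and 1 fall among 22 tested (median -0.06), Zscan and Zkscan genes none of either among 17 (median -0.08), and Zbtb genes 1 and 3 among 36 (median -0.07). Klf and Sp genes had 2 rises and 7 falls among 20 (10% and 35%), with a median of -0.24. Over all genes tested 5.87% rose and 13.6% fell, with a median of -0.17. The medians of the first 3 families lay between that of the members and that of all genes on the deposited scale; differences between families were not tested.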

How the data were processed

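RNA-seq libraries (3 labelled control, 3 labelled cKO) were grouped by the labels. The authors deposited 1 table of FPKM values for 17025 genes; fastp, HISAT2, HTSeq and the build GRCm39 are listed in the submitters' processing notes. Not given in the sources used here are versions, annotation release, gene filter and strand use. Whole fragments behind the values were recovered for 17024 genes (tolerance 1e-09), with totals of 31578875 to 36027550; no pair of libraries was a repeat (lowest chi-square per gene 15.4).

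The 11603 genes averaging 1 FPKM or more were tested on log2(FPKM + 1), computed from the deposited FPKM, with limma 3.58.1 in R 4.3.3 (group as the only term, mean-variance trend), with Benjamini-Hochberg adjustment over all, called under 0.05. The log scale understates differences of low genes. The test was also run on simulated data with as many rises as falls, unlike these data. Its outcome there is not given and is not used as support. The 18 alternatives were pseudocounts of 0.1 and 0.01, a lower filter and none, median-of-ratios and quantile scaling, no trend, array weights, the replicate number as a block, leaving out each library, 4 libraries, and limma-voom on the recovered fragments with library size or TMM scaling (factors computed as trimmed means of log ratios).

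Members, lists and tests were chosen with earlier results of these data known. Named are up to 12 largest rises and falls among called members without overlap, the 5 highest, the 3 nearest the limit on each side, and members of role lists. The reference is GRCm38, another build than the authors', used for names, order, promoters and predicted proteins. No protein table was given: fingers and KRAB-like boxes (in the first 300 residues) were counted in the longest open reading frame of each gene's GENCODE M21 transcripts, read with Biopython 1.88. Figures were drawn with matplotlib 3.10.9.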

Additional observations from a re-analysis of the deposited data

How the results depend on the processing

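Members higher and lower numbered 15 and 8. Higher counts were 8 with no filter, 24 with quantile normalization, 32 with array weights and 6 with the replicate block, and 5 to 14 with 1 library left out. Lower counts were 5 with a filter at 0.1 FPKM or none, 3 with median-of-ratios scaling or quantile normalization, 22 with array weights, 1 with the replicate block, 17 with 4 libraries, 4 by voom with TMM, and 0 to 6 with 1 library left out. The members' median difference of 0.03 was 0.19 with median-of-ratios scaling, 0.23 with quantile normalization, 0.25 by voom with TMM and -0.04 to 0.10 with 1 library left out; medians of all genes were 0.01, 0.01 and 0.02 under these 3 scalings. Corepressor genes higher numbered 0 with no filter, no trend or the replicate block, 2 with quantile normalization, 3 with median-of-ratios scaling, array weights or voom with TMM, 4 with 4 libraries and 0 to 1 with 1 library left out; genes lower numbered 2 with array weights or 4 libraries. For Ash2l the difference was 0.81 with the replicate block (adjusted p = 0.061) and 0.67 to 0.94 with 1 library left out. Directions reversed in genes that were never called: Zfp143 (-0.08) was at 0.10 with median-of-ratios scaling, 0.12 with quantile normalization, 0.25 with array weights, 0.34 with 4 libraries, 0.14 by voom with TMM and -0.24 to 0.15 with 1 library left out; Zfp445 (0.04) was at -0.018 with 4 libraries and -0.17 to 0.19 with 1 library left out; Zfp740 was at -0.42 to 0.11 with 1 library left out. Causes were not tested, except that filters change the genes tested and left-out libraries the number of libraries. Shares of all genes called in the alternative fits are not given here. The counts of members and of corepressor genes in those fits thus have no background beside them. The 4-library fit kept control 2 and 3 and cKO 1 and 2, the closest pair in each group. Replicate numbers did not pair the libraries: correlations of same-numbered deviations were -0.31 to 0.08, and with the replicate block 16 of the 23 called members lost the call. The 3 libraries per group limit precision; which sizes of difference could be detected at which level was not tabulated.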

Other observations

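Runs of neighbouring members, in gene order of GRCm38, held further values. In the longest, Zfp51, Zfp52, Zfp53, Zfp54, Zfp677, Zfp948 and Zfp983, none of the 7 passed the test, 6 differences were above 0, and the median was 0.25. Differences were above 0 in 138 of 256 members (median 0.03) and in 86 of the 124 with a KRAB-like box (median 0.20). Among all 11603 genes tested 4186 were above 0 (median -0.17). Zfp677 stood at 0.868, 1.77 and 2.31 in control 1 to 3 and at 3.26, 3.51 and 3.45 FPKM in cKO 1 to 3, as labelled (0.77, SE 0.26; limma adjusted p = 0.072). Zfp54 stood at 1.12, 1.12 and 1.18 against 1.64, 2.27 and 3.74 FPKM (0.69, adjusted p = 0.10). Both genes were higher in every cKO library than in every control library, as were 17.2% of members and 12% of all genes tested.

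In the run of Zfp26, Zfp266, Zfp426, Zfp560 and Zfp846, Zfp266 rose and the groups of Zfp560 and Zfp846 did not overlap either. Groups did not overlap upwards in 12% of all genes tested, 17.2% of members and 25% of members with a KRAB-like box. Zfp560 stood at 1.11, 0.954 and 1.01 against 1.5, 1.66 and 1.74 FPKM (0.38, adjusted p = 0.22), and Zfp846 at 0.989, 0.928 and 0.737 against 1.30, 1.40 and 1.32 FPKM (0.31, adjusted p = 0.32). Every control value of Zfp846 lay under 1 FPKM, so it passed the limit through the cKO libraries. The limit itself favoured the lack of overlap in Zfp846, which is a description. The run of Zfp382, the largest fall, held members of the other direction: Zfp260 stood at 11.1, 9.33 and 14.9 against 17.7, 18.9 and 18.5 FPKM (0.62, adjusted p = 0.054) and Zfp566 at 4.30, 4.68 and 5.98 against 10.1, 8.49 and 4.66 FPKM (0.50, adjusted p = 0.24). None of these 6 genes beside Zfp266 and Zfp382 passed the test. These genes were chosen after their values were seen, and differences between runs were not tested.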
